A study of Homo sapiens with 9 samples.

Results

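Voltage-gated and potassium ion channel genes were followed in A673 cells, a human line derived from Ewing sarcoma and driven by the fusion protein EWS/FLI, on 9 Affymetrix U133A arrays. The members are all probe sets of the deposited MAS5 table whose single annotated gene symbol begins with KCN, with CACN, or with SCN followed by a number. This rule gave 142 of the 22283 probe sets, which name 97 of the 11963 genes that 19065 probe sets name alone. Potassium channel genes (KCN) accounted for 91 probe sets of 65 genes, calcium channel genes (CACN) for 37 probe sets of 21 genes, and sodium channel genes (SCN) for 14 probe sets of 11 genes. The group KCN also takes in KCNQ1OT1 and KCNQ1DN, which are noncoding transcripts and not channels.

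All 9 arrays came from the same fusion-positive line. The siRNA arm was transfected at 5 nM for 48 hours, with 2 arrays for EZH2 siRNA no.2, 1 array for an EZH2 siRNA labelled without a number (called unnumbered below) and 2 arrays for a control siRNA. The sources used here do not state the sequence of either EZH2 siRNA. EZH2 is the histone methyltransferase of the Polycomb repressive complex. In the drug arm, 2 arrays came from cells given 100 nM trichostatin A (TSA), which blocks histone deacetylases, and 2 from cells given 0.01% DMSO, the solvent, both for 24 hours. The siRNA and drug arms differ in time and handling, and neither arm holds an untreated array.

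Potassium, sodium and calcium channels share one plan. Pore-forming subunits open a selective path through the membrane in response to voltage, calcium, G proteins or other signals, and accessory subunits set how many channels reach the surface and how fast they gate. Sodium channels start action potentials, calcium channels couple depolarisation to calcium entry, and potassium channels repolarise the cell and hold its resting potential. KCNJ5 (GIRK4) is an inward rectifier opened by G protein beta-gamma subunits after muscarinic and related receptors are activated, and it is best known as a subunit of the atrial channel.

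Promoter sequences of 3 channel genes are printed as examples: KCNJ5 and CACNB2, which both have a probe set above the table median by the mean over all arrays, and SCN10A, the sodium channel gene with the highest signal, which lies below it. By the control siRNA and DMSO arrays alone KCNJ5 lies below the median and SCN10A above it. CACNB2 and SCN10A also lie at an end of the range of CG counts on their side, so the examples are not typical. Each is the stretch of 250 bases before the gene start, 5′ to 3′ on the strand of the gene, from RefSeq on GRCh38.p14, with CG dinucleotides in capitals. KCNJ5 is on the plus strand at chr11:128891106-128891355, CACNB2 on the plus strand at chr10:18140174-18140423 and SCN10A on the minus strand at chr3:38794011-38794260.
KCNJ5: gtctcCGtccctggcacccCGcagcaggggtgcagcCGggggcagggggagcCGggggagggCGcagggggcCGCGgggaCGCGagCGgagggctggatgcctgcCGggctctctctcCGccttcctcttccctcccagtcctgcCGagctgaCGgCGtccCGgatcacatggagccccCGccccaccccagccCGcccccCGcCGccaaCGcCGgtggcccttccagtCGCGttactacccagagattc
CACNB2: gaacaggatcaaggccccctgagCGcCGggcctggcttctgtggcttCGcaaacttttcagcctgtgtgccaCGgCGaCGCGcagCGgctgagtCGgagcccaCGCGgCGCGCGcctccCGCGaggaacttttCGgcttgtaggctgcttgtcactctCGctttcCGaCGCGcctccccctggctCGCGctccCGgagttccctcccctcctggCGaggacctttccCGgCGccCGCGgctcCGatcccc
SCN10A: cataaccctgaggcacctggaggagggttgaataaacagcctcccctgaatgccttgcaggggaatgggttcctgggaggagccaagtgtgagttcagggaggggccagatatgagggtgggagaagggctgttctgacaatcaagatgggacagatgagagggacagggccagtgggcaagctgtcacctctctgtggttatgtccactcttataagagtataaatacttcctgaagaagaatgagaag

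The windows of KCNJ5 and CACNB2 hold 24 and 30 CG dinucleotides, and that of SCN10A holds 0. RefSeq gave such a window for 74 of the 97 member genes. The 8 of them with a probe set above the table median had a median of 24 CG dinucleotides, between 14 in KCNS3 and 30 in CACNB2. The other 66 had a median of 13, from 0 to 51, and 33 of these 66 (50%) held at least 14. The cut of 14 is the lowest count among the 8, so all 8 meet it by construction. Over all genes of the table the median was 22 above the table median and 11 at or below it, so the split is not particular to channels. Of those genes, 80.2% above and 44.6% at or below had at least 14. KCNMA1, the pore of the large-conductance calcium-activated potassium channel, stayed below the median with 46 CG dinucleotides. The motif GGAAGGAA, searched on both strands because repeated GGAA cores are bound by ETS factors such as EWS/FLI, was present in 1 of the 8 windows (CACNA1A) and in 4 of the 66 (6.06%), against 2.99% of all RefSeq windows of this length. The letters TATAAA, searched on both strands, were in 0 of the 8 and 5 of the 66 (7.58%), against 11.1% of all windows. Such matches describe letters only.

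**Figure D1:**
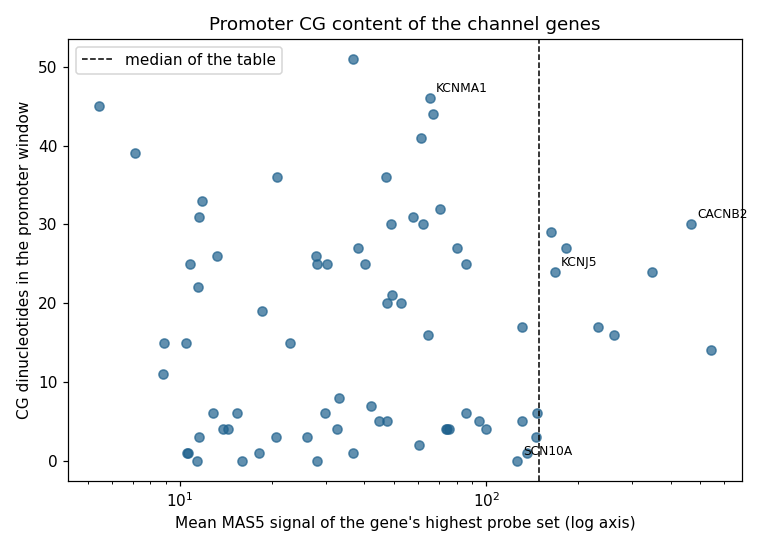
CG dinucleotides in the 250 bases before the gene start (vertical axis) against the mean MAS5 signal of the gene's highest probe set over all 9 arrays (horizontal log axis), 1 point per channel gene with a RefSeq window. To the right of the dashed line at the table median the 8 genes have 14 to 30 CG dinucleotides, while the 66 to its left span 0 to 51.

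Median signals ran from 125 in control siRNA replicate 1 to 159 in EZH2 siRNA no.2 replicate 2. Trimmed means lay between 500.1 and 500.2. Scaling every array to a common target would fix that value, so it cannot show whether the arrays were alike in level. The hybridisation controls had a mean log2 signal of 9.80 to 10.16 on the 5 arrays that are replicate 1 or the unnumbered siRNA, and of 10.43 to 10.53 on the 4 replicate 2 arrays. No source gives a scan date, so values are printed by replicate number below. Ewing sarcoma markers were bright (NKX2-2 averaged 3102 and STEAP1 6989). Of the markers of other cell types, PTPRC (leukocytes), EPCAM and CDH1 (epithelium), VWF and CDH5 (endothelium) and MYOD1 and MYOG (muscle) averaged 27.9 or less on every probe set. Other markers of the same types were higher, with PECAM1 at up to 112, CD3E at 99.9, DES at up to 48.3 and KRT5 at 46.9. These means were all under the table median. The EZH2 signal was 572 and 271 with EZH2 siRNA no.2 and 681 with the unnumbered siRNA, against 1130.1 and 1172 with control siRNA, so it was lowest in the 3 arrays labelled for its knockdown. It was 1257 and 1055 with TSA, against 990.1 and 861 with DMSO.

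Most channel probe sets were dim. Of the 142, 13 (9.15%) had a mean signal over all arrays above the table median of 148, against 9925 of the 19065 probe sets naming 1 gene (52.1%). Their median mean signal was 33.5, against 167 for the 19065. A further measure of the same pattern is that 117 members (82.4%) lay under the table median even on their highest array, against 39.7% of the 19065. Signals under 25.1, the 20th percentile of all values and the amount added to each signal before taking log2, were the mean of 59 members (41.5%), against 16.4% of the 19065. MAS5 signals depend on the probes of each set, so a place above or below the median describes a probe set and does not rank transcripts.

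The 13 probe sets above the median name 11 genes, 6 of them potassium channel genes (KCNE4, KCNS3, KCNN1, KCNMB4, KCNJ5 and KCNH2), 5 calcium channel genes (CACNG4, CACNB2, CACNB3, CACNA1A and CACNA2D1) and 0 sodium channel genes. Accessory subunits made up much of this group. KCNE4, KCNMB4, CACNB2, CACNB3, CACNA2D1 and CACNG4 encode partners of a pore and not a pore, and KCNS3 encodes an electrically silent subunit that modifies KCNB channels. The pore-forming subunits among the 11 were CACNA1A (the P/Q-type calcium channel), KCNN1 (a small-conductance calcium-activated channel), KCNH2 (hERG) and KCNJ5. CACNB2 and CACNB3 had 2 probe sets each above the median, which made CACNB the family with the most members there, 4 of 8.

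The members closest to the threshold on its upper side were KCNJ5 at 168 and KCNH2 at 163, and those closest on its lower side were KCNJ15 at 147 and CACNA1I at 146. For none of these 4 did all 9 arrays lie on one side of 148. Several families stayed wholly below: 0 of the 10 sodium channel alpha subunit probe sets were above the median, with SCN10A highest at 126, and 0 of the 4 beta subunit probe sets, with SCN3B highest at 37.6. The 10 two-pore potassium channel probe sets (KCNK) reached 62.1 for KCNK1, the 5 Shaker-type KCNA probe sets 84.5 for KCNA1, and the 3 KCNQ probe sets 70.1 for KCNQ3. The KCNJ family had 1 of 20 above, the KCNJ5 probe set 211304_x_at. Other family maxima below the median were KCNAB3 at 134, KCNIP1 at 85.9, KCNB2 at 77.3, KCND3 at 66.9 and KCNC1 at 47.2.

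**Figure D2:**
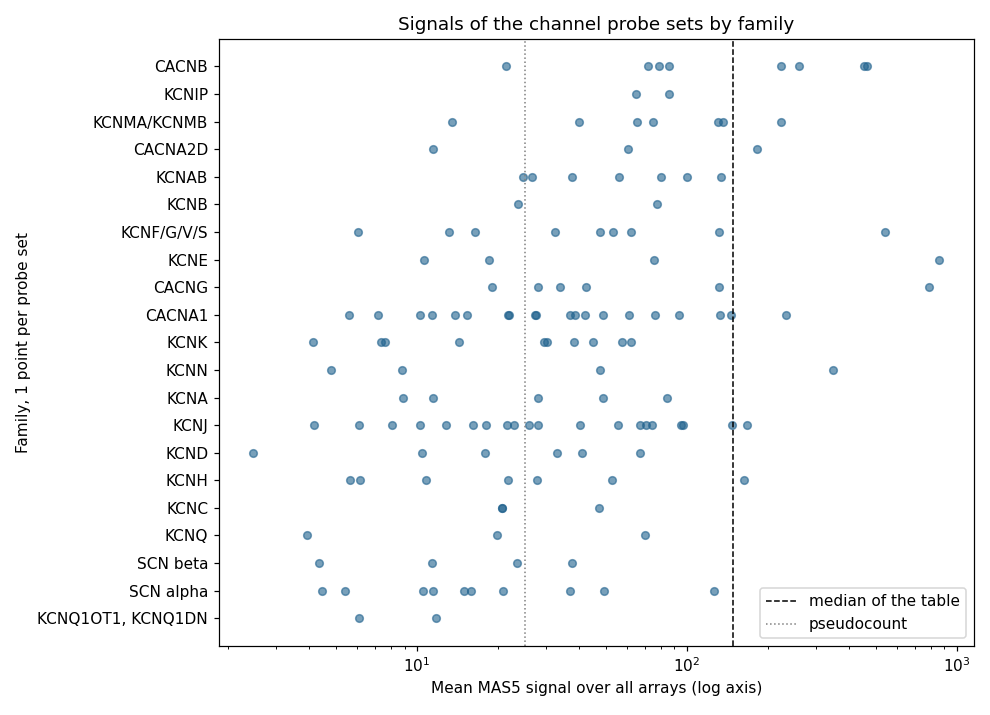
Mean MAS5 signal over all 9 arrays (horizontal log axis) of each of the 142 channel probe sets, 1 row per gene family, with the table median (148, dashed) and the pseudocount (25.1, dotted). Points right of the dashed line are the 13 probe sets above the median, 4 of them in the CACNB row, and the SCN rows have none there.

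Group means were compared on the scale log2(signal + 25.1), which understates the change of dim probe sets, with limma over all 19065 probe sets and Benjamini-Hochberg adjustment. With EZH2 siRNA no.2 against control siRNA, 0 probe sets had an adjusted p under 0.05 (0% of the table), and the lowest adjusted p was 0.913. At an unadjusted p under 0.05 there were 11 members (7.75%), against a background of 5.34% of the table, 6 of them higher (4.23%, background 3.5%) and 5 lower (3.52%, background 1.85%). All 11 were among the 129 members at or below the median (8.53%, background 5.47%). With TSA against DMSO, 0 probe sets passed as well (0%), with a lowest adjusted p of 1.00, and 8 members (5.63%) had an unadjusted p under 0.05, against a background of 3.26%. With 2 arrays a group, the number of arrays limits the precision, an exact permutation test could not go below p = 0.333, and a p that misses the threshold does not show that levels were equal. Nothing in the sources says that the 2 arrays of a group came from separate cultures beyond calling them biological replicates, so p-values measure only the spread between these samples.

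Non-overlapping groups were about as common among channels as in the table. With EZH2 siRNA no.2 both arrays lay above both control siRNA arrays for 36 of the 142 members (25.4%), against 22.5% of the table, and below them for 20 (14.1%), against 12.7%. With TSA both arrays lay above both DMSO arrays for 20 members (14.1%), against 16.3% of the table, and below them for 15 (10.6%), against 12.6%. The median log2 fold change with EZH2 siRNA no.2 was 0.10 over the members and 0.07 over the table, and with TSA it was 0.04 and 0.03.

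The split at the table median uses all 9 arrays, treated ones included. KCNJ5 211304_x_at is above 148 only through its EZH2 siRNA and TSA arrays (182 to 255), since its control siRNA and DMSO arrays (59.7 to 143) are all below, so the counts and medians of the 13 are given as a description. With EZH2 siRNA no.2 their median log2 fold change was 0.38, against 0.09 for the members at or below and 0.04 for all 9925 probe sets above the median. Both arrays of EZH2 siRNA no.2 lay above both of control siRNA for 6 of the 13 (46.2%), against a background of 21.3% of all probe sets above the median, and below for 2 (15.4%), against 14.5%. With TSA the median of the 13 was 0.24, against 0.00498 for the members at or below and 0.02 for all above, and both TSA arrays lay above both DMSO arrays for 3 (KCNE4, KCNMB4 and KCNJ5; 23.1%), against 15.4%, and below them for 0, against 13%. By the mean over the 4 control siRNA and DMSO arrays alone, a view added after the values were seen, 15 members were above the median: the other 12 of the 13, with CACNA1I, KCNAB3 and SCN10A. Their median was 0.20 with EZH2 siRNA no.2, against 0.03 for all probe sets above the median by those arrays, and 0.20 with TSA, against 0.02. Both EZH2 siRNA no.2 arrays lay above both control arrays for 5 of the 15 (33.3%, against 20.3%), and both TSA arrays above both DMSO arrays for 2 (13.3%, against 14.7%). These comparisons have no test, and single arrays bear on them. TSA replicate 1 was the highest of the 9 arrays for 7 of the 13 (53.8%), against 19.9% of all probe sets above the median, and control siRNA replicate 1 was the lowest for 6 (46.2%), against 16.1%. The median absolute log2 difference between the replicates of these 13 was 0.29 in EZH2 siRNA no.2, 0.41 in control siRNA, 0.79 in TSA and 0.34 in DMSO. Without TSA replicate 1 the TSA median of the 13 was -0.06, with 6 positive in place of 10, so its sign rests on that array. Without control siRNA replicate 1 the EZH2 siRNA no.2 median was 0.18, with 9 of the 13 positive as before. DMSO against the same control siRNA arrays, with no EZH2 siRNA, also gave a positive median for the 13. It was 0.21, with 9 positive, against 0.02 for all probe sets above the median. Compared within each replicate number, EZH2 siRNA no.2 was higher than control siRNA in both for 8 of the 13, and TSA was higher than DMSO in both for 6. The share of all probe sets above the median is not given for these counts. The 8 include KCNJ5 and KCNE4, and KCNE4 differed by only 0.000484 on the log2 scale within replicate 2.

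**Figure D3:**
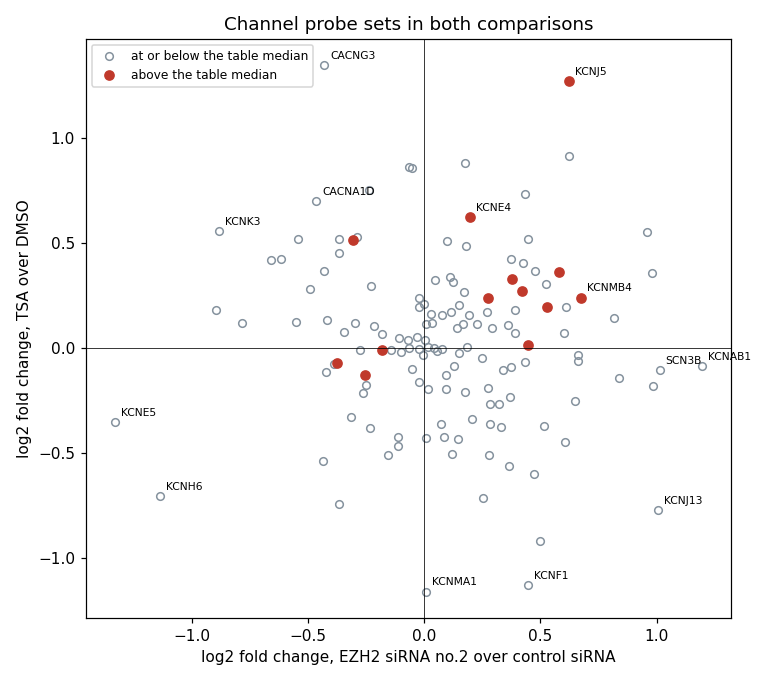
Log2 fold change of EZH2 siRNA no.2 over control siRNA (horizontal) and of TSA over DMSO (vertical) for the 142 channel probe sets, with those above the table median filled. Filled points have medians of 0.38 and 0.24 (-0.06 on the vertical axis without TSA replicate 1), and the point farthest up among them is KCNJ5 (0.62 and 1.27), which is above the table median only through its EZH2 siRNA and TSA arrays.

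KCNJ5 has 4 probe sets, and 1 of them, 211304_x_at, stood apart in the drug arm. Its signal was 232 and 182 with TSA, against 59.7 and 82.3 with DMSO, and the groups did not overlap. The log2 fold change was 1.27 ± 0.33 (SE, n = 2 each), or 1.60 within replicate 1 and 0.94 within replicate 2. This pattern was known when the members were chosen and is given as a description without a test. The same probe set read 255 and 188 with EZH2 siRNA no.2 and 243 with the unnumbered siRNA, against 124 and 143 with control siRNA. All 3 EZH2 siRNA arrays were above both control siRNA arrays, with log2 fold changes of 0.62 ± 0.33 for EZH2 siRNA no.2 and 0.76 for the unnumbered siRNA. The DMSO arrays were the lowest of the 9, with a log2 difference of -0.73 from control siRNA, so the reference of the TSA comparison lies below that of the siRNA comparison.

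The other KCNJ5 probe sets did not separate TSA from DMSO, and 1 of the 3 separated the EZH2 siRNA arrays from control siRNA. Signals of 211817_s_at were 52.0 and 104 with TSA, against 107 and 69.3 with DMSO, and those with EZH2 siRNA no.2 were 77.0 and 120.2, with 139.7 for the unnumbered siRNA, against 82.8 and 116 with control siRNA. Both pairs of groups overlapped, with log2 fold changes of -0.16 ± 0.41 for TSA and -0.02 ± 0.41 for EZH2 siRNA no.2. Probe set 208404_x_at read 28.6 and 54.0 with TSA, against 26.5 and 45.6 with DMSO (0.11 ± 0.37), and 67.3 and 79.1 with EZH2 siRNA no.2, with 91.6 for the unnumbered siRNA, against 71.4 and 35.6 with control siRNA (0.36 ± 0.37). The 3 EZH2 siRNA arrays of this probe set were not all above the higher control array. The faintest, 208397_x_at, averaged 21.5, under the pseudocount, and read 16.2 and 30.05 with TSA, against 16.5 and 21.6 with DMSO. Its signals of 23.5 and 25.04 with EZH2 siRNA no.2 and 26.4 with the unnumbered siRNA were all above the control siRNA signals of 18.1 and 16.2, as in 211304_x_at, with a log2 fold change of 0.23 ± 0.24 for EZH2 siRNA no.2. The suffixes x_at and s_at mark probe sets whose probes may also match other transcripts, and no source used here shows which transcripts the 4 sets share.

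**Figure D4:**
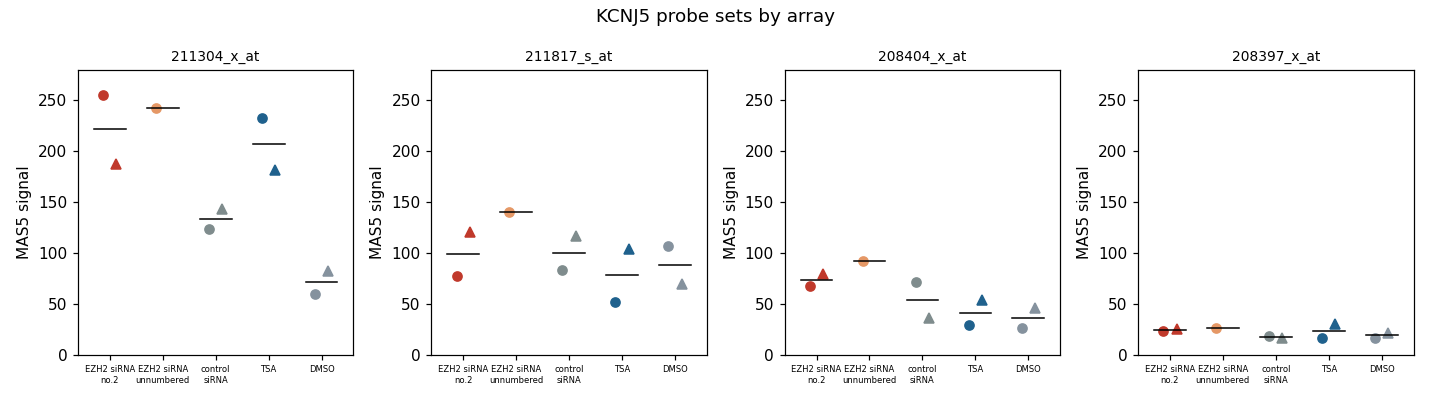
MAS5 signal of the 4 KCNJ5 probe sets (vertical axes, same scale from 0) on each array, by treatment group; circles are replicate 1, triangles replicate 2 and lines group means. In 211304_x_at both TSA arrays (232 and 182) lie above both DMSO arrays (59.7 and 82.3), which the other 3 panels do not show.

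Potassium channel subunits above the median began with KCNE4, a single-pass subunit that damps KCNQ1 and some KCNA channels. Its signal was 1334 and 1026 with TSA, against 677 and 834 with DMSO, and the groups did not overlap. The log2 fold change was 0.62 ± 0.23 (0.95 and 0.29 within replicates 1 and 2), with an unadjusted limma p of 0.0271 and an adjusted p of 1.00. In the siRNA arm KCNE4 read 944 and 736 with EZH2 siRNA no.2 and 745 with the unnumbered siRNA, against 713 and 736 with control siRNA (0.20 ± 0.23). The lower EZH2 siRNA no.2 array and the higher control array were equal to the printed precision.

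KCNMB4, a beta subunit that slows the large-conductance channel formed by KCNMA1, had higher signals in both tested arms. It read 243 and 282 with EZH2 siRNA no.2 and 247 with the unnumbered siRNA, against 124 and 192 with control siRNA, with no overlap and a log2 fold change of 0.67 ± 0.31 (0.85 and 0.50 within replicates; unadjusted limma p 0.0555). The TSA arrays read 250.2 and 256, against 199.9 and 221 with DMSO (0.24 ± 0.31). The 2 control siRNA arrays were the lowest of the 9, and the DMSO arrays also lay above them (log2 difference 0.39).

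KCNS3 signals were 416 and 323 with EZH2 siRNA no.2 and 530.1 with the unnumbered siRNA, against 412 and 475 with control siRNA, and 844 and 474 with TSA, against 803 and 601 with DMSO. Neither pair of groups separated, and the DMSO arrays were higher than the control siRNA arrays by 0.62 on the log2 scale. KCNN1 read 441 and 347 with EZH2 siRNA no.2 and 386 with the unnumbered siRNA, against 245 and 355 with control siRNA (0.38 ± 0.31), and 336 and 419.6 with TSA, against 237 and 365 with DMSO (0.33 ± 0.31). Both pairs of groups overlapped. KCNH2, the channel that carries the rapid delayed rectifier current in heart, read 138 and 139 with EZH2 siRNA no.2 and 132 with the unnumbered siRNA, against 91.1 and 271 with control siRNA. The wide control pair gave 0.48 within replicate 1 and -0.85 within replicate 2. Its TSA signals of 181 and 167 and DMSO signals of 161 and 190.0 interleaved.

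**Figure D5:**
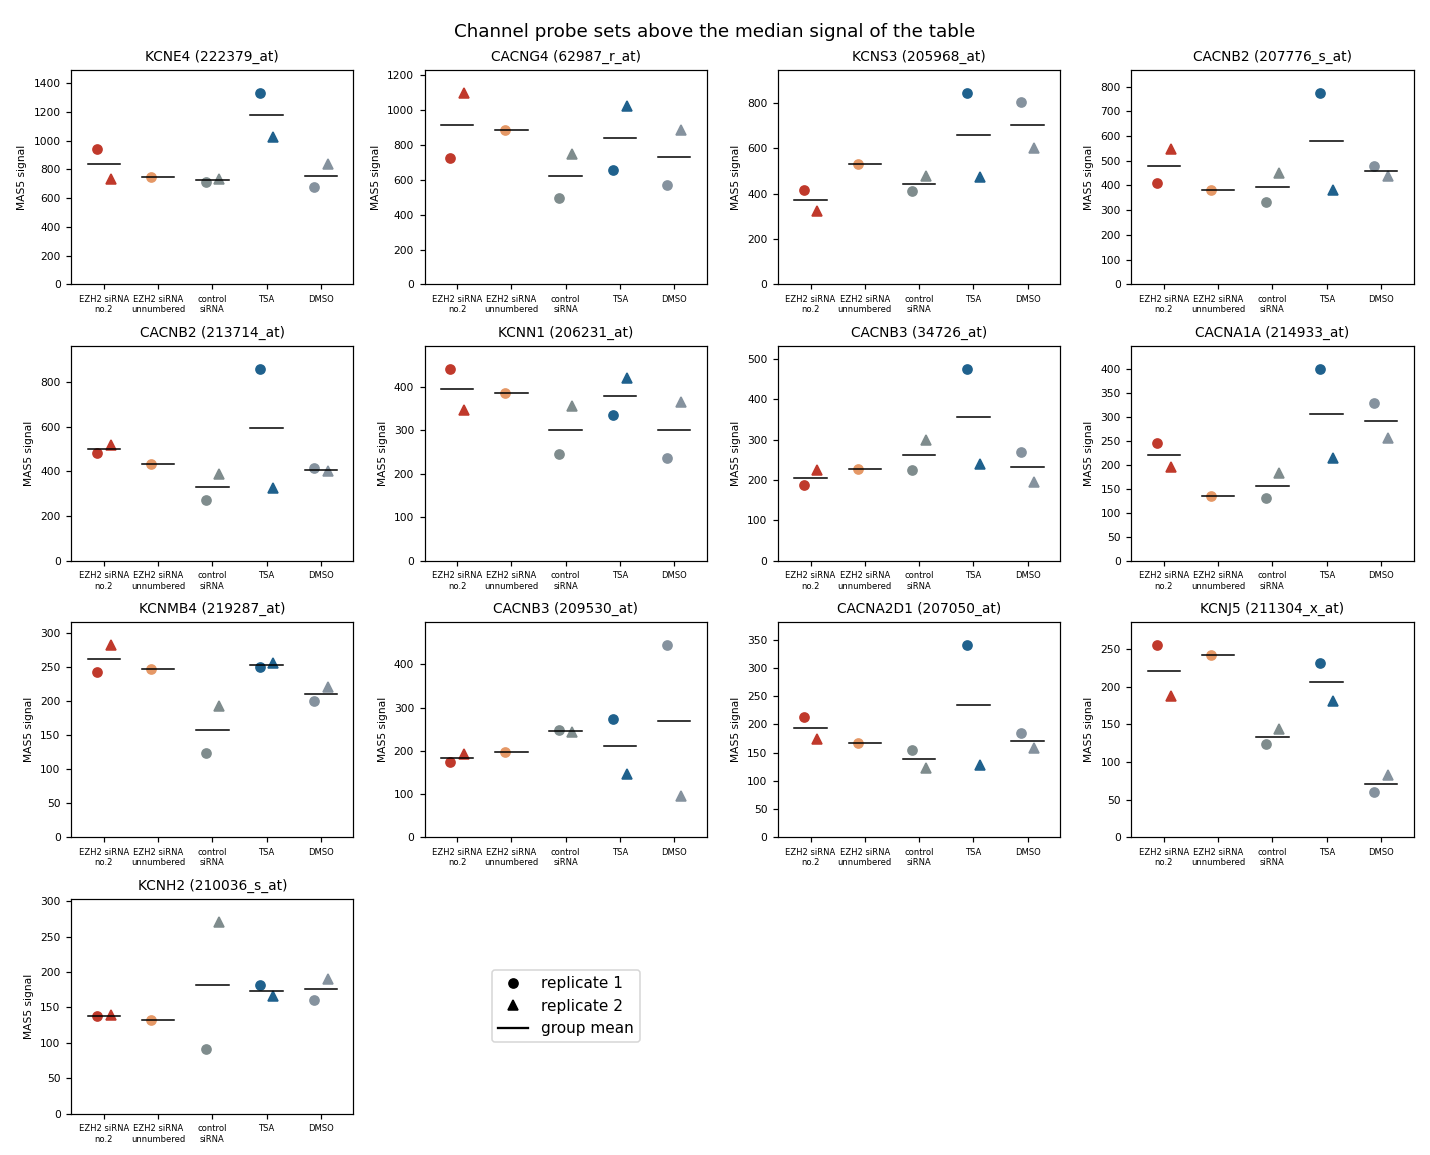
MAS5 signal (vertical axes from 0, a scale for each panel) of the 13 channel probe sets above the table median on each of the 9 arrays, by treatment group; circles are replicate 1, triangles replicate 2 and lines group means. TSA replicate 1 is the highest array in 7 panels, 5 of them of calcium channel genes, and in the KCNJ5 panel both DMSO arrays (59.7 and 82.3) lie below the other 7.

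Among calcium channel subunits, the beta subunits CACNB2 and CACNB3 bind the cytoplasmic face of the pore and bring it to the membrane. CACNB2 was measured above the median by 2 probe sets. Probe set 213714_at read 480.4 and 519 with EZH2 siRNA no.2 and 433 with the unnumbered siRNA, against 272 and 388 with control siRNA, without overlap (0.58 ± 0.40). The other, 207776_s_at, read 411 and 548 with EZH2 siRNA no.2 and 383 with the unnumbered siRNA, against 334 and 450.3 with control siRNA, and its groups overlapped (0.28 ± 0.35). The 2 probe sets thus shared a sign and not a separation. The third CACNB2 probe set, at a mean signal of 21.4 and so under the pseudocount, had the opposite sign with EZH2 siRNA no.2 (-0.55).

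With TSA both CACNB2 probe sets above the median split by replicate. They read 858 and 327 (213714_at) and 775 and 381 (207776_s_at) with TSA, against 416 and 400.2 and against 477 and 439 with DMSO. Within replicate 1 the log2 fold changes were 1.00 and 0.67, and within replicate 2 they were -0.27 and -0.19, so the sign of the TSA difference depends on the replicate for both. CACNA2D1, the extracellular subunit that binds gabapentin, had the same split, with 340.0 and 128 in TSA against 184 and 158 in DMSO (0.80 and -0.26 within replicates). In the siRNA arm it read 212 and 175 with EZH2 siRNA no.2 and 166 with the unnumbered siRNA, against 155 and 122 with control siRNA, without overlap (0.42 ± 0.43).

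CACNB3 was, among the calcium channel genes above the table median, the one with lower signals after EZH2 siRNA no.2 without overlap. Probe set 34726_at read 187 and 225 with EZH2 siRNA no.2 and 228 with the unnumbered siRNA, against 225 and 299 with control siRNA (-0.31 ± 0.37), where the higher EZH2 siRNA no.2 array and the lower control array round to the same signal and the unnumbered array lies within the control range. Probe set 209530_at read 175 and 192 with EZH2 siRNA no.2 and 197 with the unnumbered siRNA, against 248 and 243 with control siRNA (-0.38 ± 0.58). Both pairs of groups were ordered the same way, with differences smaller than their standard errors. With TSA the signals were 475 and 239 (34726_at) and 273 and 147 (209530_at), against 270.3 and 195 and against 444 and 96.0 with DMSO, and the DMSO pair of 209530_at was too wide to place the TSA arrays.

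CACNA1A read 246 and 197 with EZH2 siRNA no.2 and 134 with the unnumbered siRNA, against 131 and 182 with control siRNA on 214933_at. The EZH2 siRNA no.2 arrays lay above control (0.45 ± 0.36) while the unnumbered array lay inside the control range. TSA signals of 400.2 and 215 surrounded the DMSO signals of 329.8 and 256 (0.02 ± 0.36), and the DMSO arrays exceeded the control siRNA arrays by 0.81 (unadjusted limma p 0.0540). CACNG4, a gamma family member known mainly as an auxiliary subunit of AMPA receptors, read 725 and 1099.7 with EZH2 siRNA no.2 and 883 with the unnumbered siRNA, against 497 and 749.8 with control siRNA (0.53 ± 0.34). Its TSA signals were 657 and 1022, against 571 and 887 with DMSO (0.20 ± 0.34). In CACNG4 replicate 2 was above replicate 1 in every group with 2 arrays, so the groups overlapped in both arms, while the log2 fold changes within replicates 1 and 2 were 0.52 and 0.54 with EZH2 siRNA no.2 and 0.195 and 0.199 with TSA.

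The largest differences in the siRNA arm were in dim probe sets. KCNAB1, a cytoplasmic beta subunit of KCNA channels, read 73.5 and 61.9 with EZH2 siRNA no.2 and 96.6 with the unnumbered siRNA, against 10.9 and 20.4 with control siRNA on 210079_x_at. The 3 EZH2 siRNA arrays were the highest of the 9, since TSA read 20.3 and 14.9 and DMSO 18.4 and 21.8. The log2 fold change was 1.19 ± 0.27 for EZH2 siRNA no.2 (unadjusted limma p 0.00165, adjusted p 0.913) and 1.59 for the unnumbered siRNA. The remaining 3 KCNAB1 probe sets, given because they report the same gene, had log2 fold changes of -0.37, -0.43 and 0.47 with EZH2 siRNA no.2. With the unnumbered siRNA they had -0.33, -1.03 and 1.23, the last on 208213_s_at, which read 43.7 against 4.68 and 3.63 with control siRNA. That probe set also read 54.5 and 36.8 with DMSO, 1.26 above control siRNA on the log2 scale (unadjusted limma p 0.00564). Both siRNAs thus stood above control siRNA without overlap on 210079_x_at alone of the 4.

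KCNE5, another KCNE subunit of KCNQ1 channels, had the smallest unadjusted limma p of all 19065 probe sets, 0.000156, with an adjusted p of 0.913. It read 10.1 and 2.65 with EZH2 siRNA no.2 and 10.7 with the unnumbered siRNA, against 55.2 and 52.0 with control siRNA (-1.33 ± 0.21). The control siRNA pair stood alone, because TSA (5.79 and 3.87) and DMSO (14.5 and 11.6) were as low as the EZH2 siRNA arrays, and the difference of DMSO from control siRNA was -1.04. Every array but those 2 lay under the pseudocount.

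KCNK3 (TASK-1, an acid-sensitive background channel) read 19.0 and 18.8 with EZH2 siRNA no.2 and 8.77 with the unnumbered siRNA, against 50.9 and 62.0 with control siRNA (-0.89 ± 0.27). Its TSA signals were 62.2 and 56.8, against 27.4 and 37.8 with DMSO (0.56 ± 0.27). The groups did not overlap in either arm, in opposite directions, and the difference of the effects was 1.44 with an unadjusted limma p of 0.00422 and an adjusted p of 1.00. The DMSO arrays of KCNK3 lay below both control siRNA arrays (log2 difference -0.50), and its TSA arrays were close to the control siRNA arrays. KCNH6, the erg2 channel, read 3.20 and 9.13 with EZH2 siRNA no.2 and 18.9 with the unnumbered siRNA, against 57.4 and 31.9 with control siRNA (-1.14 ± 0.27), and 18.1 and 19.6 with TSA, against 44.2 and 48.8 with DMSO (-0.70 ± 0.27). Probe set 221023_s_at of KCNH6 was thus lower in both arms, while another, 211046_at, had the smallest unadjusted p of the members with the unnumbered siRNA (0.99, p 0.000504) at a mean signal of 5.64.

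Below the median, the largest lower signals in the drug arm among members whose groups did not overlap were those of KCNMA1 and KCNF1. KCNMA1 on 221584_s_at read 25.1 and 43.8 with TSA, against 94.8 and 119 with DMSO, without overlap (-1.16 ± 0.34, or -1.26 and -1.06 within replicates; unadjusted limma p 0.00819, adjusted p 1.00). The DMSO arrays of this probe set also lay above its control siRNA arrays, which read 49.5 and 73.0 (log2 difference 0.62). The 2 other KCNMA1 probe sets, shown because they report the same gene, differed by 0.55 and 0.48, the opposite sign. KCNF1, an electrically silent subunit, read 14.6 and 32.9 with TSA, against 105 and 59.2 with DMSO (-1.13 ± 0.44).

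CACNA1H, a T-type calcium channel pore, read 205 and 165 with TSA, against 71.6 and 102 with DMSO (0.91 ± 0.42, or 1.25 and 0.58 within replicates). It also read 219 and 91.6 with EZH2 siRNA no.2 and 173 with the unnumbered siRNA, against 78.6 and 91.0 with control siRNA (0.62 ± 0.42). Its mean of 132.9 lay below the table median of 148. SCN11A (Nav1.9, a sodium channel of sensory neurons) read 49.0 and 33.6 with TSA, against 12.998 and 9.45 with DMSO (0.86 ± 0.29), and CACNG1, the gamma subunit of the skeletal muscle channel, 51.1 and 27.4, against 4.19 and 16.6 (0.86 ± 0.39). The DMSO arrays of CACNG1 also lay below its control siRNA arrays, which read 50.7 and 21.5 (log2 difference -0.77). CACNA1D, an L-type pore, had signals of 22.0 and 18.2 with TSA, against 4.51 and 0.983 with DMSO on 210108_at (0.70 ± 0.18). Its EZH2 siRNA no.2 signals were 8.65 and 6.17, against 20.6 and 19.1 with control siRNA (-0.47 ± 0.18). The difference of its effects, 1.17, had the smallest unadjusted limma p of the members (0.00151, adjusted p 1.00), but all 9 of its signals lay under the pseudocount. On this probe set the DMSO arrays lay below both control siRNA arrays, and the TSA arrays were close to the control siRNA arrays. The brighter CACNA1D probe set, 207998_s_at, had the opposite signs, -0.42 ± 0.39 with TSA and 0.09 ± 0.39 with EZH2 siRNA no.2. Its groups overlapped in both arms.

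For that difference of effects, TSA over DMSO minus EZH2 siRNA no.2 over control siRNA, 11 members (7.75%) had an unadjusted limma p under 0.05, against a background of 2.59% of the table, and 0 had an adjusted p under 0.05. When probe sets with a mean signal under 53.2, the 30th percentile, were dropped, 51 members were left to test and 0 of them had an unadjusted p under 0.05. The share of the 13671 probe sets left by this filter is not given here. The 0 is therefore not set against a background and is not a result particular to channels. The sodium channel beta subunit SCN3B shows how dim probe sets of a gene can part. It read 49.9 and 50.1 with EZH2 siRNA no.2, against 3.56 and 23.2 with control siRNA on 204722_at (1.01 ± 0.31), and 39.7 and 6.95, against 48.0 and 59.3 on 204723_at (-0.79 ± 0.46). KCNJ13 (Kir7.1) read 37.6 and 28.9 with EZH2 siRNA no.2 and 6.69 with the unnumbered siRNA, against 2.04 and 5.79 with control siRNA (1.01 ± 0.38), and 5.87 and 6.74 with TSA, against 60.7 and 8.29 with DMSO on 210179_at, so the no.2 arrays and DMSO replicate 1 were high. The other KCNJ13 probe set, 211427_s_at, was lower with EZH2 siRNA no.2, at 2.17 and 2.55 against 14.6 and 7.46 (-0.39 ± 0.16), all under the pseudocount. A dimmer CACNA1A probe set, 210770_s_at, read 84.5 and 93.2, against 9.58 and 70.6 (0.98 ± 0.47), and CACNA1G, another T-type pore, read 49.2 and 15.01, against 57.8 and 99.4 on 210380_s_at (-0.90 ± 0.41). Another CACNA1G probe set, 207869_s_at, went the other way, with 25.8 and 43.6 against 11.4 and 4.85 (0.84 ± 0.28, unadjusted limma p 0.0161), and the 5 CACNA1G probe sets ran between these values. The first CACNA1A control array, 9.58, was far below the other 8. Of the 30 member genes with more than 1 probe set, 14 had the same sign on all of them with EZH2 siRNA no.2 and 10 with TSA. SCN10A, whose promoter is printed above, read 105 and 124 with TSA, against 116 and 191 with DMSO, and 95.8 and 138 with EZH2 siRNA no.2, against 131 and 171 with control siRNA, and overlapped in both arms.

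The unnumbered EZH2 siRNA, with 1 array, gave 14 members (9.86%) with an unadjusted limma p under 0.05, against a background of 5.44%, and 0 with an adjusted p under 0.05 (0%). Its spread was taken from the groups with 2 arrays. DMSO against control siRNA, which compares 2 control treatments of unequal duration, gave 8 such members (5.63%), against 4.54%, which is the same count as for TSA against DMSO. Both EZH2 siRNA comparisons and this one share the 2 control siRNA arrays, and this one shares the DMSO arrays with the TSA comparison, so their values are not independent.

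Genes that work with these channels were read on their probe set of highest signal. Of 24 listed G protein and receptor partners of KCNJ channels, 22 were on the table and 16 of these were above the median. With EZH2 siRNA no.2 0 passed the adjusted threshold, 14 of the 22 were positive, against 58.3% of the table, and the median log2 fold change was 0.25. With TSA 0 passed, 13 were positive, against 54.8% of the table, and the median was 0.11. PIP5K1C, which makes the lipid that KCNJ channels need to open, read 642 and 796 with EZH2 siRNA no.2, against 475 and 424 with control siRNA (0.64 ± 0.26). RGS7, a regulator that speeds the closing of G protein-gated channels, read 40.9 and 47.4, against 12.98 and 8.65 (0.95 ± 0.29). The control siRNA pair of RGS7 stood alone, because TSA read 53.3 and 32.2 and DMSO 38.1 and 52.2. Its DMSO arrays were 0.96 above control siRNA on the log2 scale. PIP5K1C and RGS7 were the 2 of 22 partners with an unadjusted limma p under 0.05 with EZH2 siRNA no.2, against 5.34% of the table.

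Of 30 other channel partners and trafficking proteins, 24 were on the table, 17 of them above the median, and 0 passed in either comparison. Their median log2 fold change was 0.13 with EZH2 siRNA no.2, with 16 of the 24 positive, against 58.3% of the table. With TSA it was 0.09, with 17 positive, against 54.8%. FGF14, an intracellular partner of sodium channels, read 93.6 and 59.9 with TSA, against 170.1 and 158 with DMSO (-0.91 ± 0.36). The DMSO arrays of FGF14 also lay above the control siRNA arrays, which read 67.4 and 116 (log2 difference 0.73). Of 42 other ion channel genes, 33 were on the table and 9 above the median, so this list too was mostly below it, and 0 passed. Their medians were 0.07 with EZH2 siRNA no.2 and -0.03 with TSA. TRPV4, a calcium-permeable channel opened by cell swelling, read 63.8 and 78.1 with TSA, against 14.8 and 18.0 with DMSO (1.21 ± 0.41), and SCNN1A, a subunit of the epithelial sodium channel, 211 and 211, against 131 and 89.2 (0.82 ± 0.32). TRPV6, another calcium-selective channel, was lower, at 17.8 and 11.99 with TSA against 74.4 and 34.7 with DMSO (-0.95 ± 0.36). None of these 3 overlapped its DMSO arrays, and all 3 adjusted limma p-values were 1.00.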

How the data were processed

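The deposited intensity values are MAS5 signals made by the authors with Affymetrix software, per the submitters' processing notes, with the version not given in the sources used here and without detection calls. Probe set symbols come from the platform annotation, which can be old. Of 22283 probe sets, 19065 name 1 gene, 1043 several, 2107 none and 68 are controls. Only the 19065 were fitted.

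Signals were turned into log2(signal + 25.1), with the pseudocount at the 20th percentile of all values, without a filter. Group means over all 9 arrays were fitted with limma 3.58.1 in R 4.3.3 (eBayes with trend, 4 residual and 4.72 prior degrees of freedom), with two-sided tests and Benjamini-Hochberg adjustment over the 19065 probe sets at 0.05. The code was tested on simulated data. Errors beside log2 fold changes are standard errors.

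The members and lists were chosen with earlier results of these data known. Named probe sets were every KCNJ5 set, the 15 with the highest mean signal, the highest of each family, the largest fold changes among members with non-overlapping groups in each main comparison and direction (above the median first, then up to 5 below it), and the 3 of smallest p in the secondary comparisons. Alternatives were 2 other pseudocounts (5.42 and 87.2), a filter at the 30th percentile (53.2), 1 probe set per gene, quantile or same-median scaling, eBayes without the trend, only the arrays of a comparison, a replicate block, pooled EZH2 siRNAs and each array left out in turn, with 3 other ways to split members at the median. The probe set kept for each gene was the brightest of those that passed the filter.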

Additional observations from a re-analysis of the deposited data

How the results depend on the processing

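No member passed the adjusted threshold of limma under any alternative. The lowest adjusted p among members ran from 0.560 to 0.998 over the alternatives for EZH2 siRNA no.2 and from 0.588 to 1.00 for TSA. The count of members with an unadjusted p under 0.05 was 11 for EZH2 siRNA no.2 and 1 with the filter at the 30th percentile or with 1 probe set per gene, which leave 51 and 42 members to test. The setting with 1 probe set per gene also applied that filter, so its counts do not stand apart from those of the filter. For TSA it was 8, with 4 under the filter and 4 with 1 probe set per gene, and 5 to 14 with each array left out, lowest without TSA replicate 1 and highest without TSA replicate 2. For the unnumbered siRNA it was 14, with 2 under the filter and 1 with 1 probe set per gene. For DMSO against control siRNA it was 8, with 4 under the filter, 3 with 1 probe set per gene and 6 to 15 with each array left out, highest without DMSO replicate 2. For the difference of effects it was 11, with 0 under both. Beyond the smaller number tested, the cause was not tested. The shares of all probe sets under these alternatives are not given here, so the counts are not set against a background. The split at the table median gave 13 probe sets above it, 11 genes by their highest probe set, and 15 probe sets by the control arrays alone or by the median over arrays.

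Replicate numbers are shared by the groups, and the deviations of same-numbered arrays correlated at 0.09 to 0.33. The hybridisation controls also separate by replicate number. A comparison has 2 pairs, and no label ties a number to a shared culture or day, so the main fit has no block. At an unadjusted limma p under 0.05 the replicate block gave 13 members for EZH2 siRNA no.2 and 10 for TSA. It gave 15 for DMSO against control siRNA and 13 for the difference of effects, with 0 adjusted calls. The share of all probe sets under the block is not given here, so these counts have no background beside them.

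Among the 60 values of named members, 1014 recomputed values kept their sign and 24 reversed. These 60 do not cover both main comparisons of every named probe set, so the counts do not describe all of them. With each array left out, KCNJ15 ran from -0.11 to 0.45 with EZH2 siRNA no.2 and from -0.24 to 0.77 with TSA. KCNAB3 ran from -0.63 to 0.13 and from -0.42 to 0.07. With the 3 EZH2 siRNA arrays as one group, KCNJ5 211817_s_at was 0.12. CACNA1A 214933_at with TSA was -0.0288 with quantile normalization and -0.0563 with same-median scaling. With each array left out, EZH2 siRNA no.2 gave KCNJ5 211817_s_at -0.28 to 0.23 and KCNH2 -0.86 to 0.49. The same settings with TSA gave KCNJ5 211817_s_at -0.53 to 0.21, 208404_x_at -0.17 to 0.39 and 208397_x_at -0.0931 to 0.32. They gave CACNG4 -0.11 to 0.51, KCNS3 -0.53 to 0.27, CACNB2 -0.25 to 0.73 (207776_s_at) and -0.30 to 1.03 (213714_at), and CACNA1A -0.40 to 0.43. They gave CACNB3 209530_at -1.05 to 0.90, CACNA2D1 -0.35 to 0.90 and KCNH2 -0.11 to 0.10. The cause was not tested. For EZH2 siRNA no.2 the median over the table was -0.04 after same-median scaling, against 0.07 as deposited, and its fold changes are to be read against that shift.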

Other observations

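Outside the rule, 3 probe sets name a channel gene together with another gene and were not analysed as members. The mean signal over all arrays was 58.7 for the probe set of GALNT8 and KCNA6, and 33.8 and 10.6 for the probe sets of KCNJ18 and KCNJ12, all below the table median of 148. Among members, CACNG3 had the largest log2 fold change with TSA (1.35 ± 0.82), with signals of 278 and 164 with TSA, against 169 and 20.6 with DMSO. Its groups overlapped, and it was named after its values were seen.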
